A study of Mus musculus with 6 samples.

Results

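The enzymes that turn arachidonic acid into prostaglandins, thromboxane and leukotrienes were followed in RE9a-driven mouse leukemia cells with and without *Phf6*. The 10 genes were chosen by name from the 54532 genes of the deposited expression table, as the steps of arachidonic acid release, prostaglandin synthesis and leukotriene synthesis, and all 10 were found in it. RNA-sequencing had been done on GFP+ leukemia cells sorted from bone marrow, in 6 libraries, of which replicates 1, 2 and 3 were *WT Phf6,RE9a* and replicates 11, 12 and 13 were *VC Phf6,RE9a*. The *WT Phf6,RE9a* cells came from *Phf6 fl/y* male mice, which carry the floxed allele and no Cre, and the *VC Phf6,RE9a* cells from *Vav1-Cre;Phf6 fl/y* male mice, in which Cre is driven by *Vav1* and deletes *Phf6* in blood cells. All 6 libraries share the RE9a-GFP retrovirus, which expresses the RUNX1-ETO9a fusion protein, fetal liver of embryonic day 14.5 as the source of the infected cells, and serial transplantation into male recipients. Mice were males of 6 to 8 weeks, and the transplant passage of the sequenced cells was not given in the sources used here. Whether replicates were taken from separate leukemias or mice is not in the labels, so the p-values measure only the spread between these libraries, which may be technical.

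Arachidonic acid is held in membrane phospholipids until a phospholipase frees it. Cyclooxygenases convert it to prostaglandin H2, from which terminal synthases make prostaglandin D2, prostaglandin E2 or thromboxane A2. Along the other branch, 5-lipoxygenase, helped by its activating protein, makes leukotriene A4, which becomes leukotriene B4 or leukotriene C4. Mast cells are known for prostaglandin D2 and leukotriene C4, platelets and macrophages for thromboxane, and neutrophils for leukotriene B4.

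*Phf6* itself (ENSMUSG00000025626, chromosome X, 52912266 to 52956943 on GRCm38) had 1044, 827 and 1142 counts in *WT Phf6,RE9a* and 388, 314 and 331 counts in *VC Phf6,RE9a* libraries. Its log2 level fell by 1.66 (SE 0.13, edgeR adjusted p = 9.32e-05), in the direction of the labels. Counts cover the whole gene, and the remaining reads in the deleted cells were not assigned to exons here. Total counts ran from 15675358 to 16817994 per library, and the upper limit behind a 0, taken as 3 counts, was no more than 0.204 CPM (counts scaled to library depth) for *WT Phf6,RE9a* and 0.178 for *VC Phf6,RE9a*. Such limits cover counting error only. Across all genes, 14169 had enough counts to be tested and 44.2% of them passed an adjusted p of 0.05, 21.5% higher and 22.7% lower in *VC Phf6,RE9a* cells, so that a change of a single gene was common in this comparison.

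Of the 10 enzyme genes, 9 were tested, 5 fell, 1 rose and 3 did not pass the threshold, while *Ptges* had too few counts for a test. The genes that fell in *VC Phf6,RE9a* cells were *Hpgds*, *Ptgs2*, *Ltc4s*, *Pla2g4a* and *Alox5*, in order of fold change, and the gene that rose was *Alox5ap*. The median log2 fold change of the 9 was -0.90, against 0.01 over all genes tested. In 6 of the 9 the libraries of the groups did not overlap, which was so for 57.3% of all genes tested. Both branches held genes that passed the threshold and genes that did not, and *Hpgds*, which makes prostaglandin D2, had the largest fold change of the 9. In these bulk libraries, fewer cells of a type and less RNA per cell cannot be told apart.

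**Figure D1:**
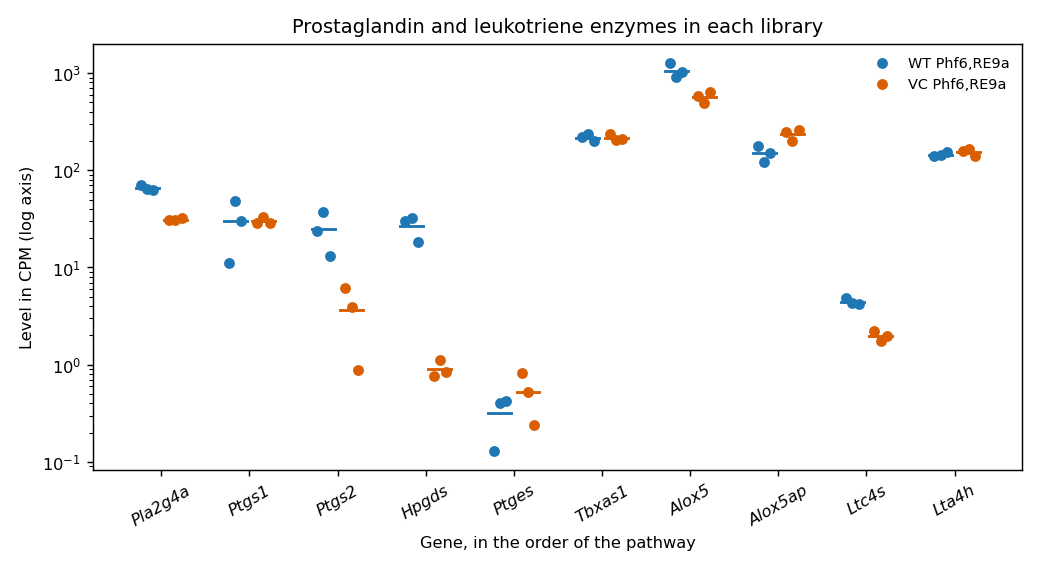
Level of each enzyme gene in CPM on a log axis, with a point for each library, a short line at the mean of each group of 3, and the genes in pathway order. *Hpgds* lay between 18.5 and 32.1 CPM in *WT Phf6,RE9a* and between 0.768 and 1.11 CPM in *VC Phf6,RE9a* libraries, while the points of *Tbxas1* and *Lta4h* overlapped.

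*Pla2g4a* (ENSMUSG00000056220, chromosome 1, 149829618 to 149961290, minus strand) encodes the cytosolic phospholipase that frees arachidonic acid from membranes. It was read at 70.0, 63.6 and 62.9 CPM in the *WT Phf6,RE9a* group and at 30.5, 30.7 and 32.0 CPM in the *VC Phf6,RE9a* group. Every *VC Phf6,RE9a* library was below every *WT Phf6,RE9a* library, and the libraries of each group were close together. The mean level was 65.5 ± 3.88 CPM against 31.1 ± 0.819 CPM (SD, n = 3 each), 2.11-fold lower without *Phf6* (log2 fold change -1.08 with an SE of 0.09, edgeR adjusted p = 0.000112).

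Of the cyclooxygenase genes, *Ptgs2* fell and *Ptgs1* did not pass the threshold. *Ptgs2* (ENSMUSG00000032487, chromosome 1, 150100031 to 150108227, plus strand), the inducible cyclooxygenase, was read at 24.0, 37.2 and 13.1 CPM in the *WT Phf6,RE9a* group and at 6.20, 3.90 and 0.891 CPM in the *VC Phf6,RE9a* group. The groups did not overlap, but both were spread widely, and replicate 13 stood lowest with 15 counts. Its mean level was 24.8 ± 12 CPM against 3.66 ± 2.66 CPM (SD, n = 3 each), 6.73-fold lower without *Phf6* (log2 fold change -2.75 with an SE of 0.62, edgeR adjusted p = 0.00928). The log2 fold change of *Ptgs2* was -3.35 without *VC Phf6,RE9a* replicate 11 and -2.29 without replicate 13, the ends of the range. In fits without 1 library its edgeR adjusted p was at most 0.0356. On the log2(FPKM + 1) scale, which understates changes of low genes, the log2 fold change was -1.80 by limma. FPKM is a fragment count scaled to gene length and library depth.

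*Ptgs1* (ENSMUSG00000047250, chromosome 2, 36230426 to 36252272, plus strand), the cyclooxygenase that many cells make steadily, was read at 11.2, 48.7 and 30.4 CPM in the *WT Phf6,RE9a* group and at 28.9, 33.4 and 28.8 CPM in the *VC Phf6,RE9a* group. All 3 *VC Phf6,RE9a* values lay inside the range of the *WT Phf6,RE9a* values. Its log2 fold change was 0.01 (SE 0.43, edgeR adjusted p = 0.983), with a 95% interval from -0.99 to 1.01, which reaches to about 2-fold in both directions. The low *WT Phf6,RE9a* replicate 1 and the high replicate 2 set the range: the log2 fold change was -0.39 without replicate 1 and 0.53 without replicate 2.

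Upstream sequences of *Ptgs2*, *Hpgds* and *Ltc4s* that hold a RUNX motif are shown because RUNX1-ETO9a keeps the DNA-binding domain of RUNX1. The 250 bases upstream of the RefSeq start of *Ptgs2* (GRCm38.p6, chr1:150099781-150100030, plus strand) are printed 5′ to 3′ with a RUNX motif (TGTGGT, here as its reverse complement) and a C/EBP motif (TTGCNNAA) in capitals.
*Ptgs2* upstream: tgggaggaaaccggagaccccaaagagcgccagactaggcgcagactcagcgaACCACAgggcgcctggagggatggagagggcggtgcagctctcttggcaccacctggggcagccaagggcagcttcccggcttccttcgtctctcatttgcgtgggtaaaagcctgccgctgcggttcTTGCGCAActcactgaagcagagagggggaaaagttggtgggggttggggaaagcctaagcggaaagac
The RUNX letters stood 191 bases and the C/EBP letters 61 bases before the start.

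*Hpgds* (ENSMUSG00000029919, chromosome 6, 65117293 to 65144908, minus strand) encodes the hematopoietic synthase of prostaglandin D2. It had 466, 473 and 305 counts in *WT Phf6,RE9a* and 13, 19 and 14 counts in *VC Phf6,RE9a* libraries. In CPM these were 30.3, 32.1 and 18.5 against 0.768, 1.11 and 0.832, so the highest *VC Phf6,RE9a* library was far below the lowest *WT Phf6,RE9a* library. The mean level was 26.9 ± 7.40 CPM against 0.902 ± 0.180 CPM (SD, n = 3 each), 29.6-fold lower without *Phf6* (log2 fold change -4.89 with an SE of 0.30, 95% interval from -5.58 to -4.19, edgeR adjusted p = 4.17e-05). With limma the log2 fold change was -2.16 on the log2(FPKM + 1) scale and -4.13 on the log2(FPKM + 0.1) scale. A processed pseudogene on the opposite strand, *Gm17147*, overlaps *Hpgds* and had 25, 34 and 17 counts against 2, 6 and 0.

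The upstream window of *Hpgds* also held both kinds of motif, shown with up to 10 flanking bases, in the direction of the gene (minus strand, GRCm38.p6) and with the motif in capitals.
*Hpgds* RUNX, chr6:65144965-65144980: TGTGGTgtaagactaa
*Hpgds* C/EBP, chr6:65144889-65144916: actttactctTTATGCAAatacgttgga
The RUNX letters lay at the far edge of the window, 244 bases before the start, and the C/EBP letters 168 bases before it, read on the opposite strand. RefSeq places this start 178 bases inside the gene of the deposited table.

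*Tbxas1* (ENSMUSG00000029925, chromosome 6, 38875404 to 39084585, plus strand), the thromboxane synthase, was read at 217.5, 235.7 and 198.0 CPM in the *WT Phf6,RE9a* group and at 235.1, 203.4 and 207.4 CPM in the *VC Phf6,RE9a* group. The groups overlapped fully, with means of 217.0 ± 18.9 and 215.3 ± 17.3 CPM (SD, n = 3 each). The log2 fold change was -0.01 (SE 0.10, 95% interval from -0.24 to 0.22, edgeR adjusted p = 0.938), an interval that leaves out a 2-fold difference. *Hipk2*, a kinase gene on the opposite strand, overlaps *Tbxas1* and had 2792 to 3790 counts. The strandedness of the counting was not given in the sources used here, so reads of *Tbxas1* and *Hipk2* in the shared stretch could not be told apart.

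*Ptges* (ENSMUSG00000050737, chromosome 2, 30889471 to 30929863, minus strand), the inducible synthase of prostaglandin E2, had 2, 6 and 7 counts in *WT Phf6,RE9a* and 14, 9 and 4 counts in *VC Phf6,RE9a* libraries. The ranges overlapped, and a difference was not detectable at this depth. With no count filter its log2 fold change was 0.70 (edgeR adjusted p = 0.521).

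The level per length in FPKM allows the terminal prostanoid synthases to be set beside each other. *Hpgds* made up 16.4, 16.1 and 11.6% of the summed FPKM of *Hpgds*, *Ptges* and *Tbxas1* in *WT Phf6,RE9a* libraries, and 0.456, 0.760 and 0.563% in *VC Phf6,RE9a* libraries. *Tbxas1* made up 83.5, 83.6 and 88.0% against 98.7, 98.7 and 99.2%. These shares did not overlap between the groups, although the level of *Tbxas1* itself did. *Ptges* stayed below 1% of the sum in every library. The shares of *Hpgds* and *Tbxas1* each gave p = 0.1 in a 2-sided exact permutation test, and that of *Ptges* p = 0.3. With 3 libraries against 3, 0.1 is the smallest p this test can give (0.12 after Benjamini-Hochberg adjustment over 6 such comparisons).

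The genes of the 5-lipoxygenase step had the highest mean FPKM of the 10 members in both groups, and they moved in opposite directions. *Alox5* (ENSMUSG00000025701, chromosome 6, 116410077 to 116461178, minus strand), which encodes 5-lipoxygenase, was read at 1258.4, 909.3 and 1014.9 CPM in the *WT Phf6,RE9a* group and at 578.8, 486.5 and 645.8 CPM in the *VC Phf6,RE9a* group. Each *VC Phf6,RE9a* value was below each *WT Phf6,RE9a* value. The mean was 1060.8 ± 179 CPM against 570.4 ± 80.0 CPM (SD, n = 3 each), 1.86-fold lower without *Phf6* (log2 fold change -0.90 with an SE of 0.16, edgeR adjusted p = 0.00316).

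*Alox5ap* (ENSMUSG00000060063, chromosome 5, 149264767 to 149288153, plus strand) encodes the membrane protein that presents arachidonic acid to 5-lipoxygenase. It was read at 177.9, 122.4 and 152.2 CPM in the *WT Phf6,RE9a* group and at 248.9, 200.8 and 261.3 CPM in the *VC Phf6,RE9a* group. The groups did not overlap, and this was the single member that rose, from 150.8 ± 27.8 to 237.0 ± 32.0 CPM (SD, n = 3 each). The increase was 1.57-fold (log2 fold change 0.65 with an SE of 0.16, 95% interval from 0.29 to 1.01, edgeR adjusted p = 0.0121). The antisense gene *Gm19719* overlaps *Alox5ap* and had 24, 41 and 60 counts against 138, 122 and 171 counts, small beside the 1804 to 4398 counts of *Alox5ap*.

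As a ratio of FPKM values, *Alox5* to *Alox5ap* was 2.45, 2.57 and 2.31 in *WT Phf6,RE9a* and 0.804, 0.838 and 0.855 in *VC Phf6,RE9a* libraries. The more abundant of the pair per length was thus *Alox5* in each *WT Phf6,RE9a* library and *Alox5ap* in each *VC Phf6,RE9a* library. The log2 ratio, on FPKM + 0.1, was 1.28 ± 0.078 against -0.26 ± 0.045 (SD, n = 3 each), a difference of -1.55 that was many times the spread within a group (2-sided exact permutation p = 0.1, the smallest possible).

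**Figure D2:**
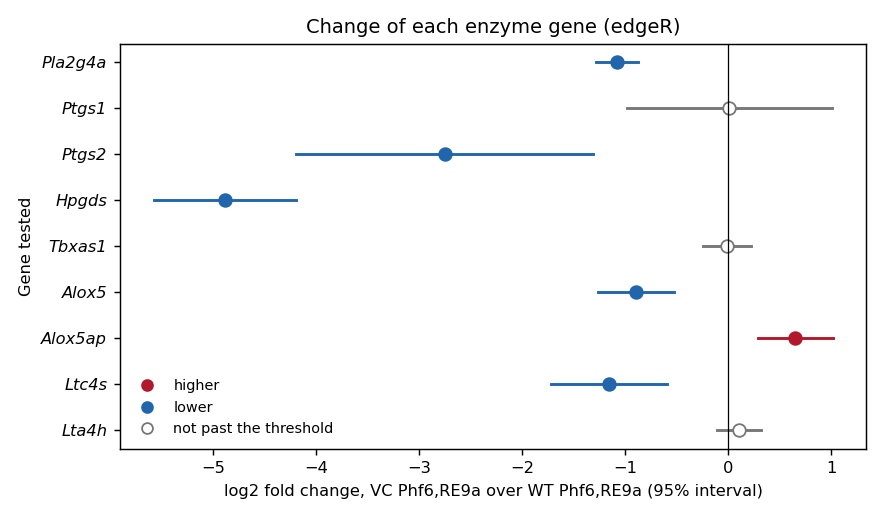
Log2 fold change of each tested enzyme gene, *VC Phf6,RE9a* over *WT Phf6,RE9a*, with its 95% interval from edgeR, filled where the adjusted p was below 0.05. *Hpgds* and *Ptgs2* lay farthest to the left, at -4.89 and -2.75, *Alox5ap* alone lay to the right with an interval clear of 0, and the interval of *Ptgs1* was wide.

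Leukotriene A4 is used by a pair of competing enzymes. *Ltc4s* (ENSMUSG00000020377, chromosome 11, 50236461 to 50238616, minus strand), which joins it to glutathione to make leukotriene C4, had 74, 64 and 69 counts in *WT Phf6,RE9a* and 38, 30 and 33 counts in *VC Phf6,RE9a* libraries. The values were tight within each group and did not overlap between them. The mean was 4.44 ± 0.325 CPM against 1.98 ± 0.249 CPM (SD, n = 3 each), 2.23-fold lower without *Phf6* (log2 fold change -1.16 with an SE of 0.24, edgeR adjusted p = 0.00673). The antisense gene *Gm26542* overlaps *Ltc4s* and had 37, 39 and 33 counts against 19, 24 and 27 counts. These were fewer than those of *Ltc4s* in each library but not small beside them. Without strand the reads of the shared stretch could not be told apart. The upstream window of *Ltc4s* held 1 RUNX motif, 150 bases before the RefSeq start, which lies 84 bases inside the gene of the deposited table, and it is shown in the direction of the gene (minus strand, GRCm38.p6) with the motif, which reads on the opposite strand, in capitals.
*Ltc4s* RUNX, chr11:50238673-50238698: gagttccgccACCACAggactaagca

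*Lta4h* (ENSMUSG00000015889, chromosome 10, 93453411 to 93484875, plus strand), the hydrolase that makes leukotriene B4, was read at 138.9, 142.6 and 152.9 CPM in the *WT Phf6,RE9a* group and at 159.7, 167.5 and 140.8 CPM in the *VC Phf6,RE9a* group. These ranges overlapped, and the log2 fold change was 0.11 (SE 0.09, 95% interval from -0.11 to 0.32, edgeR adjusted p = 0.382). In FPKM, *Lta4h* exceeded *Ltc4s* by 4.80, 5.46 and 6.08 times in *WT Phf6,RE9a* and by 11.8, 15.9 and 11.9 times in *VC Phf6,RE9a* libraries, ranges that did not overlap. For the cyclooxygenases, the ratio of *Ptgs1* to *Ptgs2* in FPKM was 0.550, 1.55 and 2.73 against 5.50, 10.1 and 38.1, again without overlap. Both log2 ratios gave a 2-sided exact permutation p = 0.1, the smallest possible.

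**Figure D3:**
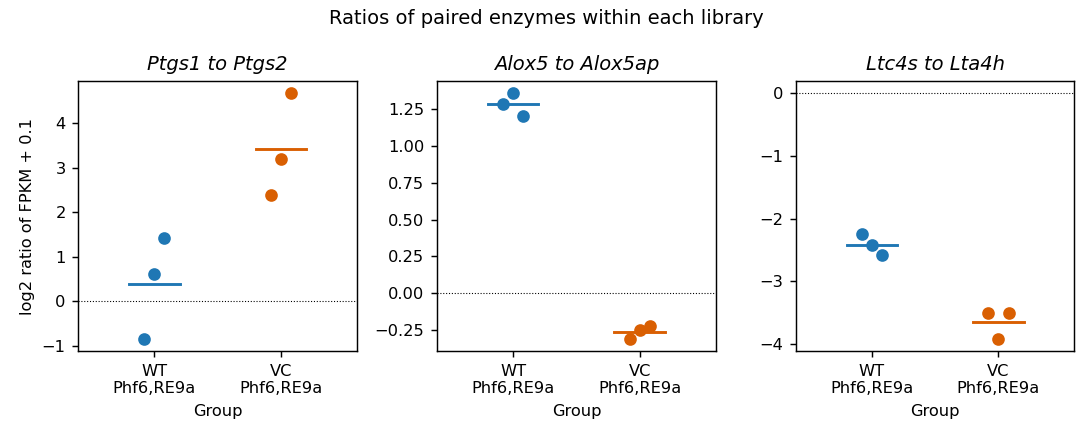
Log2 ratio of FPKM + 0.1 for 3 pairs of enzymes within each library, each panel with its own vertical axis, points for libraries and lines for the means of 3. The ratio of *Alox5* to *Alox5ap* was above 0 in the *WT Phf6,RE9a* and below 0 in the *VC Phf6,RE9a* libraries, and the groups did not overlap in any panel.

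Per length, the order of the mean FPKM in *WT Phf6,RE9a* cells was *Alox5* (256.9), *Alox5ap* (105.6), *Tbxas1* (23.7), *Lta4h* (23.6), *Pla2g4a* (10.2), *Ptgs1* (7.69), *Ptgs2* (5.37), *Ltc4s* (4.35), *Hpgds* (4.17) and *Ptges* (0.0808). The library ranges overlapped for *Tbxas1* and *Lta4h*, and for each neighbouring pair from *Pla2g4a* down to *Hpgds*. In *VC Phf6,RE9a* cells the order of the mean FPKM was *Alox5ap* (164.7), *Alox5* (137.0), *Lta4h* (25.2), *Tbxas1* (23.4), *Ptgs1* (7.72), *Pla2g4a* (4.80), *Ltc4s* (1.93), *Ptgs2* (0.791), *Hpgds* (0.139) and *Ptges* (0.133). There the ranges overlapped for *Alox5ap* and *Alox5*, for *Lta4h* and *Tbxas1*, and for *Hpgds* and *Ptges*. *Hpgds*, which stood beside *Ltc4s* and *Ptgs2* with *Phf6*, thus stood beside the barely read *Ptges* without it.

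RefSeq upstream windows of 250 bases were found for 9 of the 10 members, 10 windows in all. *Alox5ap*, the member that rose, had no window and was not searched. In the 10 windows, 7 motifs were searched on both strands, overlaps between motifs being allowed. The RUNX motif TGTGGT was in 3 member windows, those of *Hpgds*, *Ltc4s* and *Ptgs2*, and in 14.0% of all 32851 windows of that length. The C/EBP motif TTGCNNAA was in those of *Hpgds* and *Ptgs2* and in 9.56% of all windows. The ETS motif AGGAAG was in 6 member windows, those of *Hpgds*, *Ltc4s*, *Pla2g4a*, *Ptgs1*, *Ptgs2* and *Tbxas1*, and in 29.5% of all. The AP-1 motif TGANTCA was in that of *Tbxas1* and in 6.75% of all. The RefSeq starts of *Tbxas1* and *Ptges* lie 43582 and 26566 bases inside the genes of the deposited table. An alternative start of *Pla2g4a* lies 38851 bases inside, so these windows are within the genes and not upstream of them. The GATA motif AGATAA, the CRE motif TGACGTCA and the NF-κB consensus were in 0 member windows and in 9.99%, 1.55% and 7.25% of all windows.

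Cell type markers also differed between the groups, in a comparison where 21.5% of all genes tested were higher and 22.7% lower in *VC Phf6,RE9a* cells. Of 16 mast cell and basophil markers tested, 15 fell without *Phf6* and *Ms4a2*, a chain of the IgE receptor, was not past the threshold. Their summed level was 24411.3 to 38575.0 CPM in *WT Phf6,RE9a* and 8338.7 to 9137.4 CPM in *VC Phf6,RE9a* libraries. The falls were uneven, from 1.49-fold for *Srgn* to 597.3-fold for *Mrgprb2*. The highest means in *VC Phf6,RE9a* cells were those of *Hdc* (2562.9 CPM) and *Il1rl1* (2281.6 CPM), which fell 2.33-fold and 1.98-fold, so the sum does not stand for each marker. Of the 16, *Mrgprb2* alone had a library at 0, with 3592, 1852 and 2437 counts against 0, 6 and 8. Of the members, mast cells use *Hpgds*, *Ltc4s*, *Alox5*, *Ptgs2*, *Alox5ap* and *Ptgs1*. The part of the mast cell and basophil markers in the values of these genes was not tested.

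Neutrophil markers were higher for 16 of 16, with a summed level of 200.6 to 623.4 CPM against 1188.6 to 4248.9 CPM, and none was at 0. In replicates 11, 12 and 13 the neutrophil sum was 4248.9, 2764.5 and 1188.6 CPM, and *Alox5ap* was 248.9, 200.8 and 261.3 CPM. Neutrophils use *Alox5ap* and *Lta4h*, and the part of the neutrophil markers in the values of these genes was not tested. Of 12 megakaryocyte and platelet markers, 7 were tested, 3 rose (*Gp9*, *Treml1* and *Clec1b*) and 3 fell (*Itga2b*, *Itgb3* and *Gp1ba*), and the summed level was 268.2 to 390.4 CPM against 63.1 to 81.7 CPM, with *Gp1bb* at 0 in all 6 libraries and *Gp6* at 0 in the *WT Phf6,RE9a* libraries. Most of that difference was *Itga2b*, an integrin gene with a mean of 236.5 CPM against 14.3 CPM, so the sum does not stand for the list. Platelets use *Ptgs1* and *Tbxas1*, and the part of the megakaryocyte and platelet markers in the values of these genes was not tested. Of 16 monocyte and macrophage markers, 15 were tested, 3 rose and 2 fell, with sums of 198.3 to 211.8 CPM against 134.0 to 228.0 CPM. This sum hides opposite changes, as *Cx3cr1* fell from a mean of 81.1 to 1.47 CPM and *Ly6c2* rose from 10.9 to 53.3 CPM. Eosinophil markers (6 of 9 higher, 55.4 to 76.8 CPM against 132.9 to 185.1 CPM), erythroid markers (10 of 11 higher, 1807.8 to 2651.3 CPM against 5786.8 to 6731.0 CPM) and lymphocyte markers (6 of 6 tested higher, 4.68 to 11.1 CPM against 30.2 to 81.2 CPM) also moved, and their part in the members' values was not tested.

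**Figure D4:**
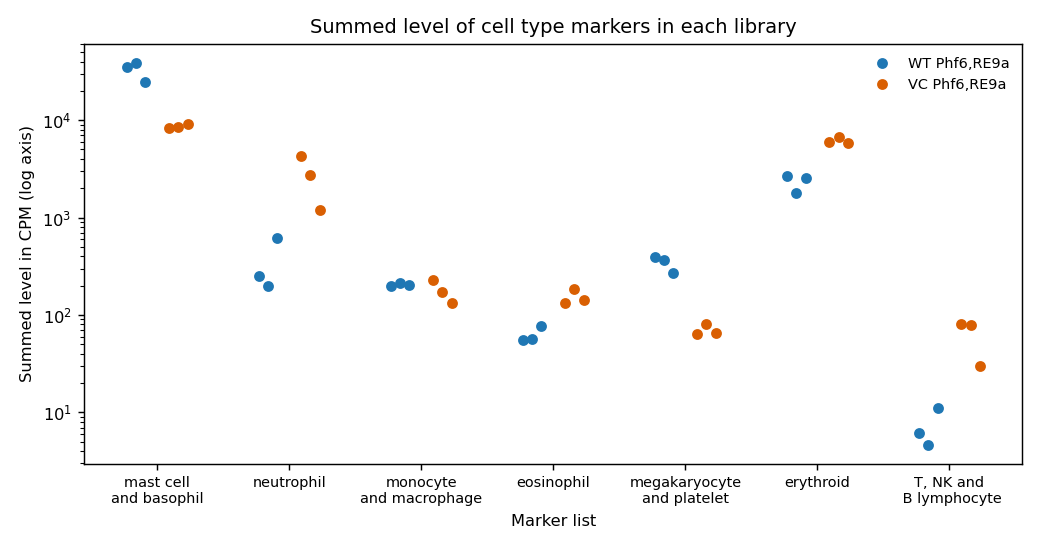
Summed level of 7 marker lists in CPM on a log axis, with a point for each library. The mast cell and basophil sum was lower and the neutrophil, eosinophil, erythroid and lymphocyte sums were higher in the *VC Phf6,RE9a* libraries, and the monocyte and macrophage sums overlapped.

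The other genes of the eicosanoid pathway were read from a list of 73 names, of which 71 were in the table, as 72 genes because *Dpep2* stands there under 2 identifiers. Of these, 40 were tested, with 14 higher, 11 lower and 15 not past the threshold. With at least 10 counts required in every library, 9 were higher and 9 lower. Over all genes tested, 44.2% passed the threshold, 21.5% higher and 22.7% lower. The median log2 fold change of the 40 pathway genes was 0.39. The 10 other phospholipase genes tested include *Anxa1*, which is no enzyme but is known to restrain phospholipase activity. Of the 10, 7 were higher and 3 were not past the threshold. *Pla2g1b*, *Pla2g16*, *Pla2g4b* and *Pla2g4c* had too few *WT Phf6,RE9a* counts to pass the count filter without the *VC Phf6,RE9a* libraries. The filter thus favoured higher calls for them, and the 7 are no measure of the list's direction. *Pla2g1b*, a secreted phospholipase, had 2, 4 and 3 counts in *WT Phf6,RE9a* and 192, 252 and 192 counts in *VC Phf6,RE9a* libraries (log2 fold change 5.96, edgeR adjusted p = 2.84e-05). Increases were also found for *Anxa1* (log2 fold change 2.31, adjusted p = 0.00713), *Pla2g16* (2.14, 0.0253) and *Pla2g4c* (1.81, 0.0183), all from edgeR. Smaller increases of genes with more reads were those of *Pla2g12a*, from a mean of 36.1 to 92.6 CPM (1.36, edgeR adjusted p = 0.000243), and *Pla2g6*, from 31.7 to 71.1 CPM (1.17, 0.00021). *Pla2g15*, a lysosomal phospholipase, had a log2 fold change of 0.42 (adjusted p = 0.102). *Pla2g16* had at most 31 counts in a library, lost its call in 4 of the 6 fits that left out 1 library (adjusted p from 0.0628 to 0.0896, without *WT Phf6,RE9a* replicate 2 or 3 or *VC Phf6,RE9a* replicate 11 or 12) and by limma on log2(FPKM + 1) (0.21, adjusted p = 0.0614), and had a log2 fold change of 3.32 without *WT Phf6,RE9a* replicate 1. *Pla2g4c* lost its call without *VC Phf6,RE9a* replicate 11 (adjusted p = 0.0665).

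Of 4 genes that return arachidonic acid to phospholipids, 2 fell and 2 were not past the threshold. *Lpcat2*, an acyltransferase that also makes platelet-activating factor, had 2510, 712 and 885 counts against 90, 82 and 35 counts (log2 fold change -4.44, edgeR adjusted p = 0.000838, and -3.65 without the high *WT Phf6,RE9a* replicate 1). *Lpcat3* had a log2 fold change of 0.03 (adjusted p = 0.800). Of the 5 other prostanoid synthases tested, 0 passed the threshold by edgeR, 0 by DESeq2 and 0 by limma on either FPKM scale, and 0 had an unadjusted edgeR p under 0.05. *Ptges3*, the most abundant of them per length, had a log2 fold change of 0.27 (adjusted p = 0.178, and 0.0425 without *WT Phf6,RE9a* replicate 3).

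Beside *Alox5*, the other lipoxygenase genes tested moved apart. *Alox15*, a lipoxygenase that oxidizes arachidonic acid at other carbons, had 5, 14 and 22 counts in *WT Phf6,RE9a* and 178, 419 and 416 counts in *VC Phf6,RE9a* libraries (log2 fold change 4.50, edgeR adjusted p = 0.000466). *Alox8* had 111, 128 and 95 counts against 5, 9 and 1 counts (log2 fold change -4.58, edgeR adjusted p = 0.000444). Its log2 fold change was -5.28 without *VC Phf6,RE9a* replicate 12 and -4.11 without replicate 13. Thus *Alox8* fell as *Alox5* did, and *Alox15* rose. Of the relatives of *Ltc4s* and *Alox5ap* in the same membrane protein family, *Mgst1* (log2 fold change 2.50, edgeR adjusted p = 0.00531) and *Mgst3* (1.70, 2.84e-05) rose, and *Mgst2*, which can also make leukotriene C4, had a log2 fold change of 0.37 (adjusted p = 0.384).

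Among receptors for the products, 5 prostanoid receptor genes were tested, 1 higher and 1 lower. *Ptger3*, a receptor of prostaglandin E2, had 3739, 3204 and 3372 counts against 1491, 1635 and 1746 counts and fell (log2 fold change -1.21, edgeR adjusted p = 0.000128). *Ptger4*, another such receptor, had a log2 fold change of 0.53 (adjusted p = 0.0763, and 0.0215 without *WT Phf6,RE9a* replicate 3). Of the leukotriene receptors, 2 were tested, and *Ltb4r2* fell (log2 fold change -1.55, adjusted p = 0.00343) while *Ltb4r1* had a value of 0.54 (adjusted p = 0.280). Of 8 genes of export, uptake and breakdown tested, 3 rose and 5 fell. *Cyp4f18*, an enzyme that oxidizes leukotriene B4 in myeloid cells, rose (log2 fold change 2.35, adjusted p = 0.000379), and *Cyp4f16* (-2.28, 0.00190), *Cyp4f13* (-1.09, 0.00656) and the epoxide hydrolase gene *Ephx2* (-3.38, 0.00602) fell. The *Cyp4f* genes are close relatives, and the counting could have split reads between them. *Ephx2* had 0 counts in *VC Phf6,RE9a* replicate 13. Its log2 fold change was -2.81 without that replicate and -3.99 without replicate 12.

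**Figure D5:**
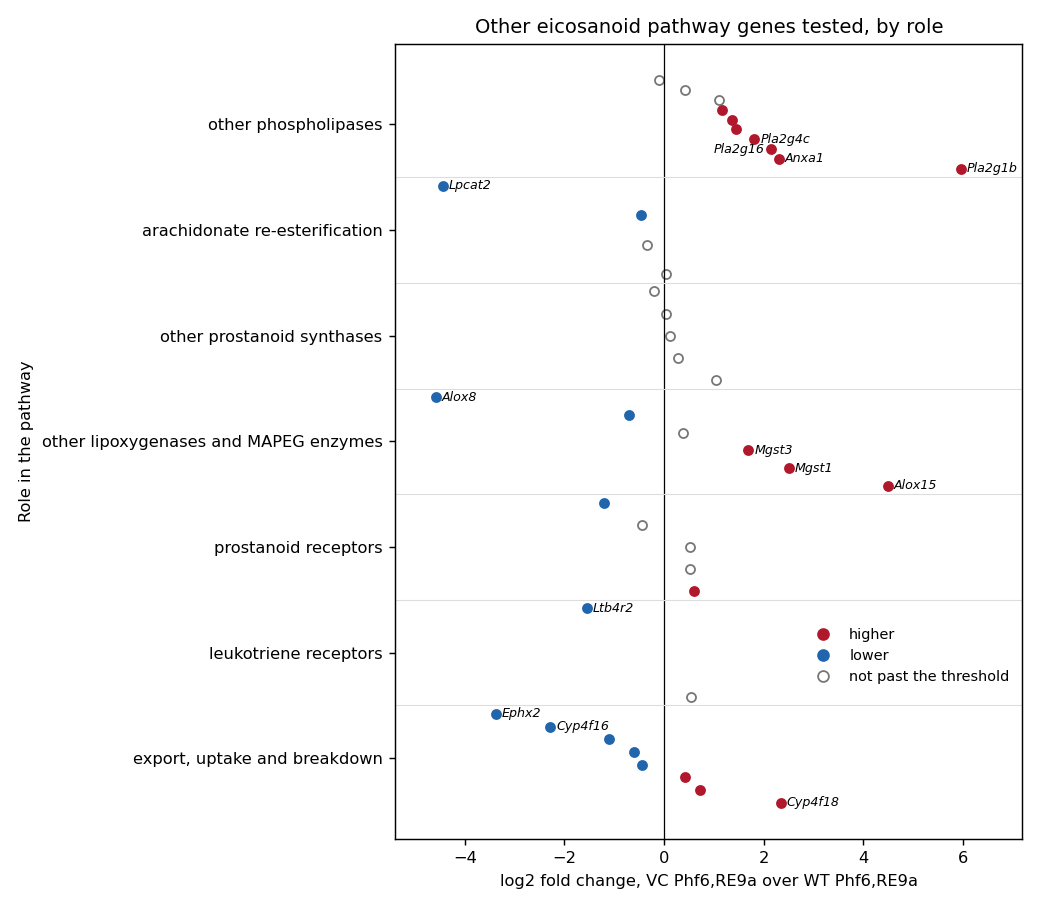
Log2 fold change of the 40 other pathway genes tested, *VC Phf6,RE9a* over *WT Phf6,RE9a*, by role, with names for calls of at least 1.5 in size. The phospholipase list had 7 calls, all to the right, some of them genes that passed the count filter only through the *VC Phf6,RE9a* libraries. The other prostanoid synthases had no call.

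The genes whose pattern over the 6 libraries was most like that of *Hpgds*, by the root mean square difference of centred log2 CPM, were *Gpr174* (0.148), *Oit3* (0.174) and *Mllt6* (0.200). *Gpr174* had 1082, 1262 and 809 counts against 30, 52 and 31 counts, lowest in the same *WT Phf6,RE9a* replicate 3 as *Hpgds*. For *Ptgs2* they were *Fosl2* (0.240), *Batf* (0.351) and *Cd33* (0.353). *Fosl2*, which encodes an AP-1 protein, had 2929, 4011 and 1784 counts against 594, 386 and 138 counts, and like *Ptgs2* it was highest in *WT Phf6,RE9a* replicate 2 and lowest in *VC Phf6,RE9a* replicate 13. These are descriptions of likeness over 6 libraries that share their groups and depth.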

How the data were processed

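RNA of GFP+ bone marrow leukemia cells was sequenced as paired-end reads, and the authors deposited 1 table with whole-number read counts per gene and FPKM values per library. The same table holds the authors' comparison: a signal per group (its mean normalized count), a log2 fold change and p-values per gene, which the authors deposited from DESeq2 and which were not used. The submitters' processing notes name Bowtie 0.12.0 and mm8. Gene coordinates in the table match GRCm38 instead (GENCODE M21; 98.33% of 54409 shared identifiers have the same start and end, including all 10 members), and coordinates are given on GRCm38. The counter, the annotation release and strandedness were not given in the sources used here.

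In R 4.3.3, deposited counts were filtered with filterByExpr, scaled by TMM and compared over all genes with the quasi-likelihood test of edgeR 4.0.16 (2-sided), with Benjamini-Hochberg adjustment and a threshold of 0.05. CPM values use TMM library sizes. Standard errors were derived from the fold change and the F statistic. Ratios and shares of FPKM were compared by exact permutation. The test was tried on simulated counts. Alternatives were DESeq2 1.42.0, its size factors, no filter, a floor of 10 counts per library, limma 3.58.1 on log2(FPKM + 1) or log2(FPKM + 0.1), a minimum fold, TPM in place of FPKM, and leaving out each library. The members, gene lists and marker lists were chosen with earlier results of these data known. Named genes were all members, *Phf6*, called pathway genes with a log2 fold change of at least 1 in size (at most 4 per role), the most abundant uncalled gene of a role, and the 3 genes most like each of the 2 members with the largest changes. *Pla2g12a* and *Pla2g6* were named in addition. Plots used Python 3.11.15 and matplotlib 3.10.9. Promoter sequences are from RefSeq (GRCm38.p6).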

Additional observations from a re-analysis of the deposited data

How the results depend on the processing

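No paired analysis was possible because the groups share no replicate numbers (1 to 3 against 11 to 13). The 6 member calls were kept by DESeq2, size factors, no filter, the stricter filter, limma on both FPKM scales and each fit without 1 library, and with a minimum log2 change of 1 the counts were 0 higher and 4 lower, since *Alox5* and *Alox5ap* changed by less. That minimum left 3035 of 6260 calls over all genes and 7 lower calls in the other pathway genes, and requiring 10 counts in every library left 9 higher calls there. Leaving out 1 library gave 4690 to 6470 calls over all genes. Directions turned in fits without 1 library for genes that were not called: *Ptgs1* (log2 fold change from -0.386 to 0.533), *Tbxas1* (-0.082 to 0.041) and *Lpcat3* (-0.029 to 0.082). The groups' difference in the log2 ratio of *Ptgs1* to *Ptgs2* was 3.01, and 1.98 with FPKM + 1 in place of FPKM + 0.1. With 3 libraries per group and unknown independence, small differences of *Ptgs1* and *Ptges* were limited by spread and depth.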
